A study of Mus musculus with 8 samples.

Results

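The genes described here are 6 members of 2 lipid signalling systems that place dendritic cells within the spleen: the oxysterol receptor gene Gpr183 (also called EBI2), the sphingosine phosphate (S1P) receptor genes S1pr1, S1pr3 and S1pr4, and the oxysterol enzyme genes Ch25h and Hsd3b7. They are a list of symbols, with no threshold on a measured value, and make up 6 of the 55487 genes of the deposited tables. Transcripts were measured by RNA-seq in conventional dendritic cells, the antigen-presenting cells that fall into the cDC1 and cDC2 subsets. The cells were sort-purified, untreated, from spleens of C57BL/6 mice, with about 100000 cells and 10 ng of total RNA per library. There were 2 libraries in each of 4 groups: cDC1 of mice labelled Zeb2 -165(d1+2+3), cDC1 of wild-type mice, cDC2 of mice labelled Irf8 +32-/- and cDC2 of wild-type mice. The groups are called Zeb2 mutant cDC1, wild-type cDC1, Irf8 mutant cDC2 and wild-type cDC2 below, and libraries by their labelled replicate numbers 2 and 3. The alleles are carried in the germline as far as the labels say, with no Cre driver or transgene named. The sources used here do not give age, sex, sort gates or how many mice made up a library. The p-values therefore cover no more than the spread between these libraries, which may be technical.

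Gpr183 is a G protein-coupled receptor that makes cells migrate towards dihydroxylated cholesterol products. Ch25h carries out an early hydroxylation in making that ligand, Cyp7b1 a later one, and Hsd3b7 breaks the ligand down, so that the ligand forms a gradient between stromal zones. In mouse spleen, Gpr183 is known for holding cDC2 in the marginal zone bridging channels, where they meet lymphotoxin signals and prime CD4 T cells. The S1P receptors sense a lipid that is abundant in blood and scarce in tissue. S1pr1 and S1pr3 couple to migration and adhesion, S1pr1 is best known for the exit of lymphocytes from lymphoid organs, and S1pr4 is mostly found on blood cells.

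The stretches just upstream of 3 member genes are shown because Gpr183 and S1pr3 differed between the subsets by the test below, while S1pr4, which did not pass it, is the one whose stretch holds a CACCTG motif. All sequences are RefSeq sequence of build GRCm38.p6, written 5′ to 3′ on the strand of the gene. Each ends before the start that RefSeq annotates, without any base inside the Ensembl gene used for the counts. The Gpr183 stretch adjoins the Ensembl start, and 21 bases for S1pr3 and 5 for S1pr4 lie between the stretch and that start. Capitals mark each match to the general E-box CANNTG, which includes CACCTG, the E-box form best known for binding by ZEB proteins. The Gpr183 stretch is chr14:121965196-121965443 on the minus strand, the S1pr3 stretch is chr13:51408368-51408617 on the plus strand, and the S1pr4 stretch is chr10:81500138-81500387 on the minus strand.
Gpr183: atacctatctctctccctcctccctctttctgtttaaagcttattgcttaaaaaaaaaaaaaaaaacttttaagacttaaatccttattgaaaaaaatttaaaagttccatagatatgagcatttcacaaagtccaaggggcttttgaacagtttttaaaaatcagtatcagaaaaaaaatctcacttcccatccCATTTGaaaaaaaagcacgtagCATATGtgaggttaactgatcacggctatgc
S1pr3: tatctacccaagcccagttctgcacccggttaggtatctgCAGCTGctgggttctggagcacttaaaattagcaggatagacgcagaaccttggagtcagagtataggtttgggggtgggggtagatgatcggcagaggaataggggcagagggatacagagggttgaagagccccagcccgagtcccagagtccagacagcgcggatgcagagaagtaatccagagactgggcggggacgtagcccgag
S1pr4: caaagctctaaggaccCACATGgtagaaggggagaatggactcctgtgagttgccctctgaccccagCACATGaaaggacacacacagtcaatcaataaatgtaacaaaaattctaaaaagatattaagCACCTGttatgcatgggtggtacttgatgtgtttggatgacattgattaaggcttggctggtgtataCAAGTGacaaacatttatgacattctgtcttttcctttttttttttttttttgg
The Gpr183 stretch held 2 E-boxes (CATTTG and CATATG), the S1pr3 stretch 1 (CAGCTG) and the S1pr4 stretch 4, of which 1 was CACCTG. Among 32851 RefSeq upstream windows of 250 bases, 66.2% held CANNTG and 17.2% held CACCTG on either strand. The interferon-stimulated response element and the composite ETS and IRF element, both bound by IRF proteins, and the ETS form GAGGAAGT were searched on both strands and had no match in these stretches. They occurred in 3.0%, 2.3% and 2.4% of the windows, in that order. These matches describe letters only. Upstream stretches were at hand for 5 of the 6 members.

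The libraries held between 49380686 and 58611821 counts, and 20631 genes passed the low-count filter. Levels are given as CPM, the counts scaled to library size with TMM normalisation, and comparisons between genes as the authors' FPKM, which are per kilobase. Differences were tested with edgeR's quasi-likelihood test over all 20631 genes in 1 fit of the 8 libraries, and a gene counts as called where its p, adjusted by Benjamini-Hochberg, was under 0.05. All 9 cDC1 markers were called higher and all 10 cDC2 markers lower in wild-type cDC1 than in wild-type cDC2. Irf8, the gene named in the label of one mutant, stood at 3708.5 and 3438.8 CPM in Zeb2 mutant cDC1 and 3262.7 and 3640.6 CPM in wild-type cDC1. It stood at 146.8 and 120.0 CPM in Irf8 mutant cDC2, and 126.2 and 103.8 CPM in wild-type cDC2. Zeb2 stood at 2.24 and 3.54 CPM in Zeb2 mutant cDC1, 2.09 and 2.10 in wild-type cDC1, 197 and 172 in Irf8 mutant cDC2, and 201 and 200.3 CPM in wild-type cDC2. Neither gene was called in either mutant against its wild type (edgeR, adjusted p of 0.477 for Zeb2 in Zeb2 mutant cDC1 and 0.914 for Irf8 in Irf8 mutant cDC2). The labels do not spell out what the alleles change, so the transcript levels do not check the genotype labels.

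Gpr183 transcripts were several-fold lower in cDC1 than in cDC2, both between the wild types and between the mutant groups. The mutant groups differ in allele as well as in subset. Gpr183 (ENSMUSG00000051212, chr14:121952551-121965195, minus strand, GRCm38) had 54.6 and 52.2 CPM in Zeb2 mutant cDC1, 99.1 and 64.7 in wild-type cDC1, 322 and 329 in Irf8 mutant cDC2, and 384 and 381 CPM in wild-type cDC2. All 4 cDC1 libraries lay below all 4 cDC2 libraries, and the 2 wild-type cDC1 libraries lay farther apart than the pair of any other group. It averaged 81.9 ± 24.3 CPM in wild-type cDC1, against 382.5 ± 2.24 CPM in wild-type cDC2 (SD, n = 2 libraries each), a log2 fold change of -2.22 (SE 0.184, 95% interval -2.64 to -1.81), or 4.67-fold lower in cDC1 (edgeR, adjusted p = 9.28e-06). The same comparison called 30.1% of all genes tested, 14.2% higher and 15.9% lower in cDC1. Gpr183 lies inside Ubac2, a gene of the opposite strand with which it shares no exonic base. The library kit does not mark strand, so unspliced Ubac2 reads cannot be told apart from Gpr183 reads. Ubac2 also fell in wild-type cDC1 against wild-type cDC2, by less, with a log2 fold change of -0.75 (SE 0.121, edgeR adjusted p = 9.30e-04).

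**Figure D1:**
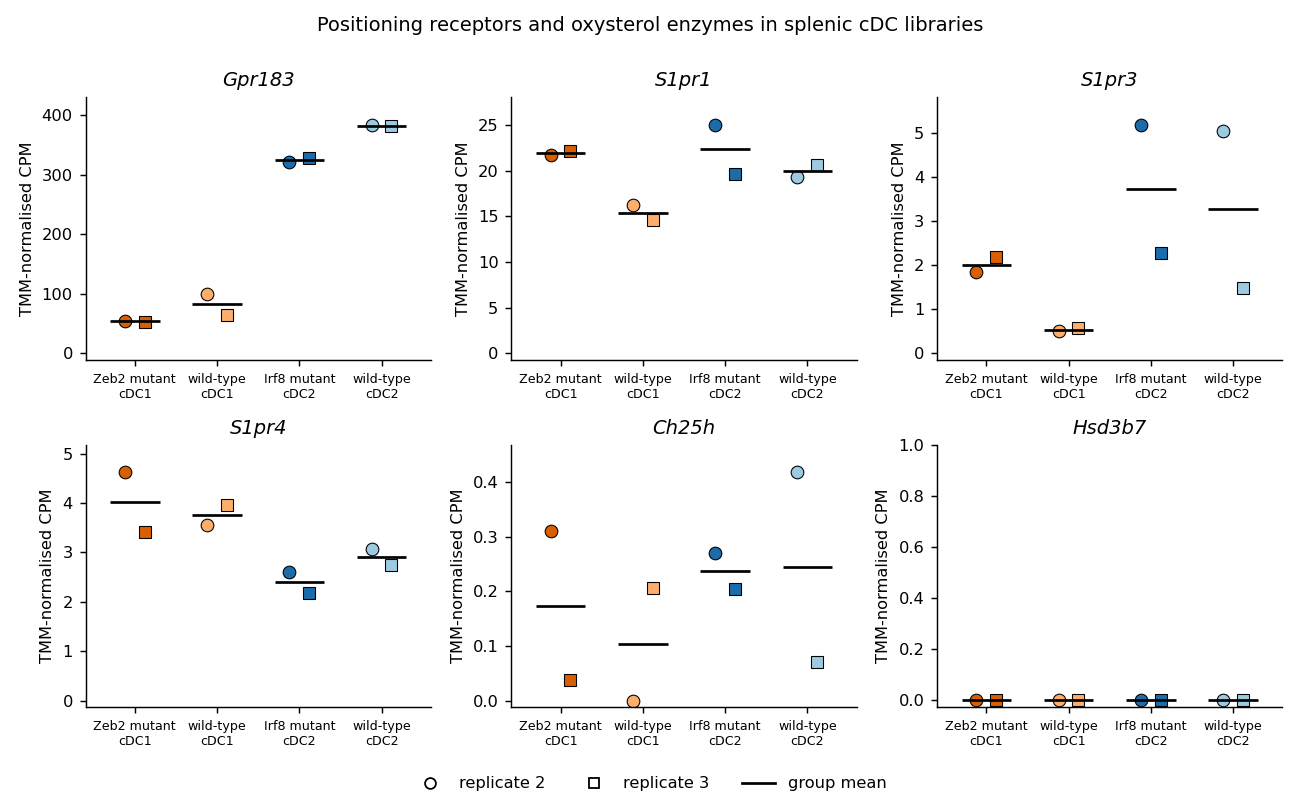
TMM-normalised CPM of the 6 members (y axis, linear and separate for each gene) in each library of the 4 groups (x axis), with circles for replicate 2, squares for replicate 3 and a bar for the group mean. Gpr183 stood at 52.2 to 99.1 CPM in the cDC1 libraries and at 322 to 384 CPM in the cDC2 libraries, S1pr3 spread widely within both cDC2 groups, and Hsd3b7 had no counts.

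S1pr1 was present in every group, at 14.6 to 25.1 CPM over the 8 libraries, and no comparison called it. S1pr1 (ENSMUSG00000045092, chr3:115710433-115715072, minus strand) had 21.8 and 22.2 CPM in Zeb2 mutant cDC1, 16.2 and 14.6 in wild-type cDC1, 25.1 and 19.7 in Irf8 mutant cDC2, and 19.4 and 20.7 CPM in wild-type cDC2. The wild-type cDC1 libraries were the lowest of the 8. Wild-type cDC1 against wild-type cDC2 gave a log2 fold change of -0.38 (SE 0.172, 95% interval -0.77 to 0.01), which did not pass (edgeR, adjusted p = 0.128). After removal of the libraries' length trends the value was -0.51 and passed (edgeR, adjusted p = 0.0382).

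S1pr3 was lowest in wild-type cDC1 and uneven between the libraries of cDC2. S1pr3 (ENSMUSG00000067586, chr13:51408639-51422797, plus strand) had 1.84 and 2.18 CPM in Zeb2 mutant cDC1, 0.501 and 0.565 in wild-type cDC1, 5.20 and 2.28 in Irf8 mutant cDC2, and 5.06 and 1.49 CPM in wild-type cDC2. In both cDC2 groups replicate 2 was higher than replicate 3, by 1.17 on the log2 scale in Irf8 mutant cDC2 and by 1.74 in wild-type cDC2, whereas the wild-type cDC1 libraries lay close together and below all others. These levels rest on 107 and 118 counts in Zeb2 mutant cDC1, 29 and 33 in wild-type cDC1, 270 and 112 in Irf8 mutant cDC2, and 278 and 84 in wild-type cDC2. Wild-type cDC1 averaged 0.533 ± 0.0448 CPM and wild-type cDC2 3.27 ± 2.52 CPM (SD, n = 2 libraries each), a log2 fold change of -2.61 (SE 0.598, 95% interval -3.96 to -1.27), or 6.14-fold lower in cDC1 (edgeR, adjusted p = 0.00759). Without replicate 2 of wild-type cDC2 the log2 fold change was -1.48 and the call was lost (edgeR, adjusted p = 0.0977), so the call rests on that library. S1pr3 shares 45 of its 4463 exonic bases with the predicted gene Gm32834, which had 0 to 3 counts per library.

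S1pr4 stood at 2.18 to 4.63 CPM over the 8 libraries, and no comparison called it. S1pr4 (ENSMUSG00000044199, chr10:81497747-81500132, minus strand) had 4.63 and 3.41 CPM in Zeb2 mutant cDC1, 3.56 and 3.97 in wild-type cDC1, 2.60 and 2.18 in Irf8 mutant cDC2, and 3.07 and 2.75 CPM in wild-type cDC2. Each cDC1 library lay above each cDC2 library, with a narrow gap between 3.41 and 3.07 CPM. Wild-type cDC1 against wild-type cDC2 gave a log2 fold change of 0.37 (SE 0.293, 95% interval -0.29 to 1.03), which did not pass (edgeR, adjusted p = 0.393). Zeb2 mutant cDC1 against Irf8 mutant cDC2 gave 0.75 (95% interval 0.08 to 1.41), which did not pass after adjustment either (edgeR, unadjusted p = 0.0292, adjusted p = 0.0882).

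Per kilobase, Gpr183 was the most abundant of the 6 receptor genes compared (Gpr183 and all 5 S1P receptors) in every group, and S1pr1 the most abundant S1P receptor. Mean FPKM of Gpr183 was 19.3 in Zeb2 mutant cDC1, 28.7 in wild-type cDC1, 109.8 in Irf8 mutant cDC2 and 128 in wild-type cDC2. Among 21897 protein-coding genes ordered by FPKM, Gpr183 held rank 2458 to 2616 in Zeb2 mutant cDC1, 1457 to 2082 in wild-type cDC1, 331 to 352 in Irf8 mutant cDC2 and 275 to 284 in wild-type cDC2. Gpr183 thus ranked far higher in the cDC2 libraries than in the cDC1 libraries. Mean FPKM of S1pr1 was 7.52 in Zeb2 mutant cDC1, 5.14 in wild-type cDC1, 7.14 in Irf8 mutant cDC2 and 6.34 in wild-type cDC2. S1pr1 made up 63.7%, 61.3%, 65.5% and 60.4% of the summed FPKM of the 5 S1P receptors in these groups, in the same order. Mean FPKM of Gpr183 over that of S1pr1 was 2.56 in Zeb2 mutant cDC1, 5.59 in wild-type cDC1, 15.4 in Irf8 mutant cDC2 and 20.2 in wild-type cDC2, a description of levels with no test.

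The other S1P receptors were low, and their order by mean FPKM differed between the groups. That order also differed between the 2 libraries of every group except wild-type cDC1, and it was not tested. Mean FPKM of S1pr4 was 1.76 in Zeb2 mutant cDC1, 1.61 in wild-type cDC1, 0.975 in Irf8 mutant cDC2 and 1.18 in wild-type cDC2, and that of S1pr3 was 0.468, 0.122, 0.811 and 0.702 in those groups. S1pr2, a receptor that restrains migration, averaged 10.02 ± 0.415 CPM in cDC1 and 5.82 ± 0.694 CPM in cDC2 of wild-type mice (SD, n = 2 libraries each) and was called higher in cDC1 (log2 fold change 0.78, SE 0.207, edgeR adjusted p = 0.0160). S1pr5, known for the exit of NK cells and monocytes from tissue, averaged 0.558 ± 0.251 CPM in cDC1 and 4.06 ± 2.37 CPM in cDC2 of wild-type mice and was called lower in cDC1 (log2 fold change -2.86, SE 0.497, edgeR adjusted p = 0.00152). In wild-type cDC2 the libraries were opposed for the 2 low receptors: S1pr5 had 2.38 CPM in replicate 2 and 5.74 CPM in replicate 3, and S1pr3 had 5.06 and 1.49 CPM in them.

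**Figure D2:**
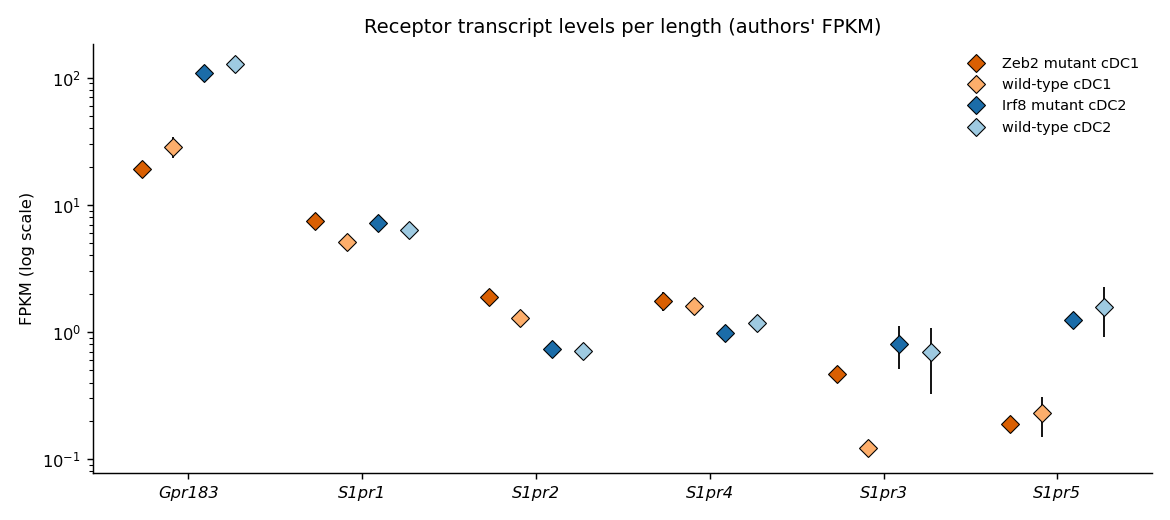
Mean FPKM (y axis, log scale) of Gpr183 and the 5 S1P receptor genes in the 4 groups, with lines from the lowest to the highest of the 2 libraries (hidden where shorter than the symbol). Gpr183 exceeded every S1P receptor in each group, from 19.3 FPKM in Zeb2 mutant cDC1 to 128 FPKM in wild-type cDC2, and S1pr1 stayed between 5.14 and 7.52 FPKM.

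The oxysterol enzyme genes gave little signal. Ch25h (ENSMUSG00000050370, chr19:34473778-34475164, minus strand) had 18 and 2 counts in Zeb2 mutant cDC1, 0 and 12 in wild-type cDC1, 14 and 10 in Irf8 mutant cDC2, and 23 and 4 in wild-type cDC2. These counts correspond to at most 0.418 CPM, and the libraries of all 4 groups overlapped. The interval of wild-type cDC1 against wild-type cDC2 ran from -4.71 to 2.25 on the log2 scale, so that no difference of a few fold was detectable at this depth. Of its 1387 exonic bases, 159 are shared with the predicted gene Gm26902 of the opposite strand. Hsd3b7 (ENSMUSG00000042289, chr7:127800604-127803802, plus strand) had 0 counts in all 8 libraries, and 3 counts would have been 0.0258 to 0.0297 CPM as a group mean.

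The 0 of Hsd3b7 says nothing of its expression. Of its 2769 exonic bases, 2746 (99.2%) lie in exons of Gm49388, on the same strand, or of 9430064I24Rik, on the opposite strand, which leaves 23 bases of its own. Gm49388 also had 0 counts in every library, and 9430064I24Rik had 1 to 11. All 1246 genes in the tables that had no exonic base of their own had 0 counts in all libraries, against 19.6% of the other genes. Of the 51 protein-coding genes with 1 to 50 exonic bases of their own, 37 (72.5%) had 0 counts. The sources used here do not say how reads in shared exons were counted.

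Counted over the members, 5 of the 6 passed the low-count filter and 2 of these, Gpr183 and S1pr3, were called lower in wild-type cDC1 than in wild-type cDC2. That is 2 of 5 against 30.1% of all genes tested, and DESeq2 also called 2. These 2 also had an unadjusted p under 0.05, as had 40.0% of all genes. Among the 5, the libraries of the groups did not overlap for 1 higher gene (S1pr4) and 3 lower genes (Gpr183, S1pr1 and S1pr3), where 32.8% of all genes lay fully higher and 32.1% fully lower, 65.0% together. The median log2 fold change of the 5 was -1.23, against 0.03 over all genes tested. That median is the value of Ch25h, with its wide interval. It was -0.46 without replicate 2 of wild-type cDC1, -1.95 without replicate 3 of wild-type cDC1, -0.43 without replicate 2 of wild-type cDC2 and -1.97 without replicate 3 of wild-type cDC2.

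Marker lists of other cell types differed between the same groups. Those of monocytes and macrophages, which can carry S1P receptors, summed to 84.0 and 74.8 CPM in wild-type cDC1, against 950.1 and 913.7 CPM in wild-type cDC2, with 6 of 8 tested markers called lower in cDC1 and 1 higher. The cDC2 sums came mostly from Csf1r (623.5 and 612.5 CPM) and Adgre1 (227 and 204 CPM) there. The macrophage genes Spic (11.2 and 6.98 CPM in wild-type cDC1, against 28.2 and 27.5 CPM in wild-type cDC2), Vcam1 (41.3 and 42.1 CPM against 59.3 and 59.2 CPM), Cd5l (0.899 and 0.0684 CPM against 3.76 and 3.04 CPM) and Mertk (0.501 and 0.530 CPM against 2.55 and 2.93 CPM) were also lower in the cDC1 libraries, Ly6c2 was higher (10.13 and 7.94 CPM against 3.64 and 3.66 CPM), and Vsig4 stood at 0 in both wild-type cDC1 libraries and at 0 and 0.0355 CPM in wild-type cDC2. Endothelial markers, from a cell type rich in S1P receptors, summed to 73.7 and 79.0 CPM in wild-type cDC1, against 121.5 and 130.1 CPM in wild-type cDC2, with 2 of 5 tested markers called lower in cDC1 and 0 higher. Pecam1 was the bulk of it (69.9 and 71.8 CPM in cDC1, 107 and 115 CPM in cDC2), Kdr stood at 0.449 and 2.55 CPM in cDC1 and 11.7 and 12.8 CPM in cDC2, and Cdh5 and Tek stayed under 0.75 CPM in these libraries. Stab2 (2.33 and 3.30 CPM in cDC1, 2.53 and 1.19 CPM in cDC2) and Egfl7 (0.259 and 0.513 CPM against 0.0727 and 0.320 CPM) had higher means in cDC1, with overlapping libraries. B cell markers, from a cell type that carries Gpr183, summed to 448.8 and 399.3 CPM in wild-type cDC1, against 481.6 and 567.1 CPM in wild-type cDC2, mostly Ighm, with 2 of 10 tested markers called higher in cDC1 and 2 lower. Cd79b (2.14 and 1.33 CPM in cDC1, 21.0 and 22.3 CPM in cDC2), Fcer2a (0.259 and 0.240 CPM against 4.001 and 5.90 CPM) and Cr2 (0 and 0.479 CPM against 2.22 and 3.75 CPM) lay lower in the cDC1 libraries. Ms4a1 (35.5 and 21.1 CPM against 5.89 and 7.39 CPM) and Ighd (5.88 and 7.41 CPM against 1.73 and 1.26 CPM) lay higher, and Pax5 and Ebf1 stayed under 1 CPM. NK cell markers, mostly Klrk1, went the other way, at 209.4 and 150.4 CPM in wild-type cDC1 and 108.9 and 106.3 CPM in wild-type cDC2. Of 6 tested, 3 were called higher in cDC1 and 0 lower. T cell markers summed to 84.3 and 71.7 CPM in wild-type cDC1 and 96.9 and 85.2 CPM in wild-type cDC2. Of 7 tested, 1 was called higher in cDC1 and 1 lower. The part of the markers of these lists in the receptor differences was not tested. In bulk libraries, fewer cells with a transcript and less of it per cell cannot be told apart.

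The comparison of Zeb2 mutant with wild-type cDC1 asks whether the Zeb2 -165(d1+2+3) allele alters the cDC1 that the mice still make. No member passed the test. edgeR called 14 of all genes tested (0.0679%), with 0.0145% higher and 0.0533% lower in the mutant. An unadjusted p under 0.05 was reached by 3 members, Gpr183, S1pr1 and S1pr3, and by 10.5% of all genes, and DESeq2 called no member. Gpr183 averaged 53.4 ± 1.69 CPM in Zeb2 mutant cDC1 and 81.9 ± 24.3 CPM in wild-type cDC1 (SD, n = 2 libraries each), a log2 fold change of -0.62 (SE 0.177, 95% interval -1.02 to -0.22, edgeR adjusted p = 0.293). Both mutant libraries lay below both wild-type libraries, by a gap from 54.6 to 64.7 CPM. The size of the difference turned on which wild-type library was kept: -0.28 with replicate 3 alone and -0.89 with replicate 2 alone, and the second value passed (edgeR, adjusted p = 0.00415). The wild-type cDC1 libraries differed from each other with gene length, with a rank correlation of 0.40 between gene length and the log2 ratio of replicate 3 over replicate 2 across 8158 genes, and with that trend removed Gpr183 did not pass either.

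S1pr1 and S1pr3 lay on the other side. S1pr1 averaged 22.0 ± 0.276 CPM in Zeb2 mutant cDC1 and 15.4 ± 1.18 CPM in wild-type cDC1, a log2 fold change of 0.51 (SE 0.172, 95% interval 0.13 to 0.90, edgeR adjusted p = 0.350). S1pr3 averaged 2.01 ± 0.237 CPM in Zeb2 mutant cDC1 and 0.533 ± 0.0448 CPM in wild-type cDC1, a log2 fold change of 1.91 (SE 0.591, 95% interval 0.58 to 3.24, edgeR adjusted p = 0.312), the largest of the members in this comparison. For both genes the libraries of the groups did not overlap, as for 39.0% of all genes tested, 19.2% higher and 19.8% lower. Gpr183 was the member that lay fully lower. With no low-count filter, Gpr183 (-0.62, adjusted p = 0.0107) and S1pr3 (1.91, adjusted p = 0.00463) passed edgeR's test, so these 2 calls depend on the filter. DESeq2 gave adjusted p-values of 0.0529 for Gpr183, 0.0557 for S1pr3 and 0.141 for S1pr1. S1pr4 gave 0.09 (95% interval -0.56 to 0.75, edgeR adjusted p = 0.952), and Ch25h 0.75 with an interval from -2.74 to 4.24.

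Markers also differed between Zeb2 mutant and wild-type cDC1. Of the cDC2 markers, 1 of 10 tested was called lower, Cd209a, at 0.378 and 0.406 CPM in Zeb2 mutant cDC1 and 11.5 and 5.53 CPM in wild-type cDC1. Esam, which was not called, stood at 4.63 and 5.94 CPM in Zeb2 mutant cDC1 and 11.2 and 7.48 CPM in wild-type cDC1. Irf4 also lay lower in both mutant libraries. Other uncalled cDC2 markers went the other way. Cd4 stood at 12.68 and 10.81 CPM in Zeb2 mutant cDC1 and 10.16 and 6.72 CPM in wild-type cDC1. Zeb2 lay higher in both mutant libraries as well, and Dtx1 had the higher mean there, with overlapping libraries. The cDC2 markers summed to 45.8 and 38.1 CPM in Zeb2 mutant cDC1 and 57.2 and 43.7 CPM in wild-type cDC1. For Cd209a, Esam, Cd4 and the sums, as for Gpr183, the wild-type value was higher in replicate 2 than in replicate 3. None of the markers of other cell types was called. Neutrophil markers summed to 33.8 and 48.8 CPM in Zeb2 mutant cDC1 and 5.15 and 0.547 CPM in wild-type cDC1. S100a8 and S100a9 made up most of the mutant sums, Elane stood at 8.43 and 8.37 CPM in Zeb2 mutant cDC1 and 1.14 and 0.188 CPM in wild-type cDC1, and Retnlg (0.740 and 0.479 CPM against 0.0346 and 0.103 CPM) and Ly6g (0.103 and 0.166 CPM against 0.0173 and 0.0342 CPM) lay higher in the mutant libraries as well. Endothelial markers summed to 92.9 and 95.1 CPM in Zeb2 mutant cDC1 and 73.7 and 79.0 CPM in wild-type cDC1, and monocyte and macrophage markers to 55.1 and 54.7 CPM and to 84.0 and 74.8 CPM. Their part in the values of Gpr183, S1pr1 and S1pr3 was not tested.

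**Figure D3:**
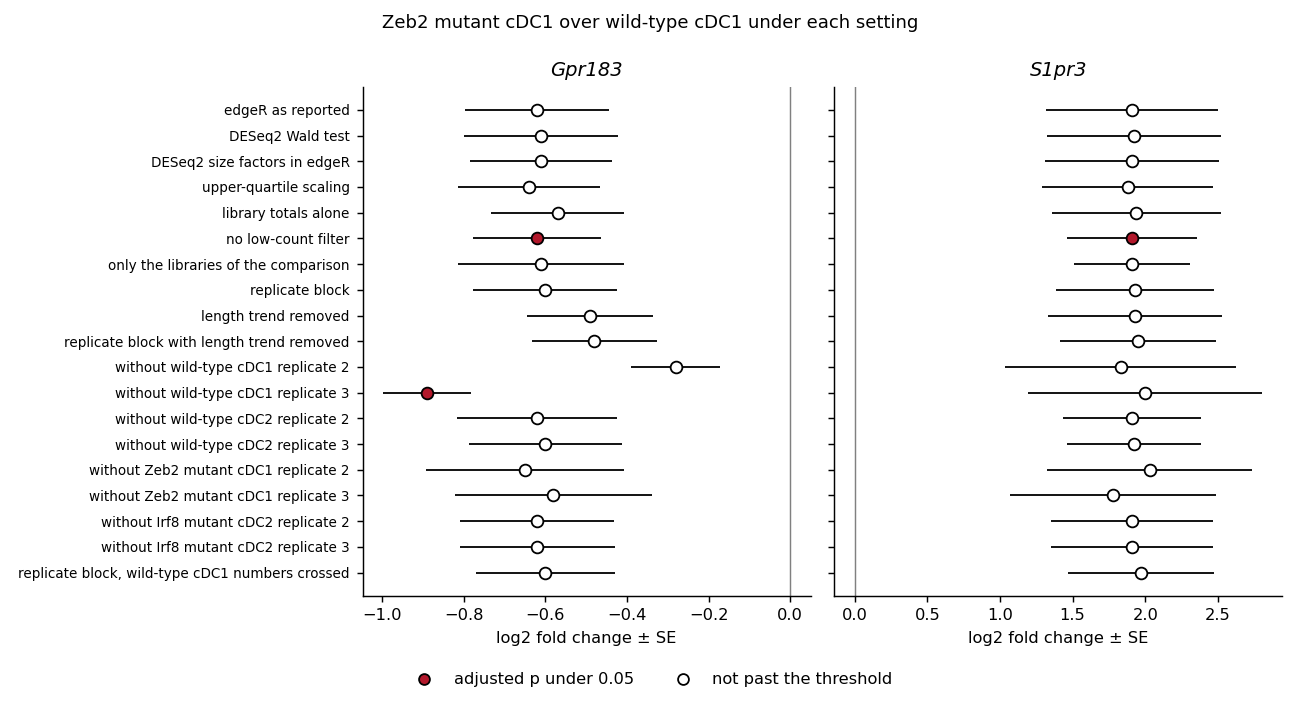
Log2 fold change (x axis, ± SE) of Gpr183 and S1pr3 in Zeb2 mutant cDC1 over wild-type cDC1 under each setting of the analysis (y axis), with red symbols where the adjusted p was under 0.05. Gpr183 ran from -0.89 to -0.28 and S1pr3 from 1.78 to 2.03, and both passed together only with no low-count filter.

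The comparison of Irf8 mutant with wild-type cDC2 asks the same of the Irf8 +32-/- allele in cDC2. No member was called, and edgeR called 0 of all 20631 genes (0%), with 6.36% of them and no member at an unadjusted p under 0.05. DESeq2 called no member and 151 genes in all. Gpr183 averaged 325.4 ± 4.70 CPM in Irf8 mutant cDC2 and 382.5 ± 2.24 CPM in wild-type cDC2 (SD, n = 2 libraries each), a log2 fold change of -0.23 (SE 0.175, 95% interval -0.63 to 0.16, edgeR adjusted p = 0.929). Its mutant libraries lay below its wild-type libraries by more than the spread within either pair, although the test, whose spread is shared over all groups, did not pass. The S1pr4 libraries did not overlap either, with a gap smaller than the spread within each pair. Of all genes, 19.7% lay fully lower and 19.6% fully higher (39.3% together). Intervals were -0.22 to 0.55 for S1pr1, -1.03 to 1.42 for S1pr3, -0.95 to 0.38 for S1pr4 and -3.41 to 3.32 for Ch25h. A difference of 2-fold either way was thus outside the interval of Gpr183, S1pr1 and S1pr4, but not of S1pr3 or Ch25h. Neutrophil markers summed to 24.3 and 14.1 CPM in Irf8 mutant cDC2 and 0.400 and 4.32 CPM in wild-type cDC2, and erythroid and platelet markers to 58.4 and 3.73 CPM in Irf8 mutant cDC2 and 7.37 and 10.12 CPM in wild-type cDC2, with the high value in mutant replicate 2 alone. No marker of any list was called, and the part of these markers in the member values was not tested.

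Set directly against each other, the mutant groups also differed in Gpr183. These groups differ in allele and in subset at once, which cannot be told apart here. Gpr183 averaged 53.4 ± 1.69 CPM in Zeb2 mutant cDC1 and 325.4 ± 4.70 CPM in Irf8 mutant cDC2, a log2 fold change of -2.61 (SE 0.186, 95% interval -3.03 to -2.19), or 6.09-fold lower in Zeb2 mutant cDC1 (edgeR, adjusted p = 3.37e-06). It was the only member called, by edgeR and by DESeq2, where edgeR called 27.9% of all genes tested, 12.8% higher and 15.0% lower in Zeb2 mutant cDC1. An unadjusted p under 0.05 was reached by 2 members, Gpr183 and S1pr4, and by 37.8% of all genes. The libraries of the groups did not overlap for 1 higher member (S1pr4) and 2 lower members, against 32.2% and 33.6% of all genes, 65.8% together. S1pr3 gave -0.90 (SE 0.552, 95% interval -2.14 to 0.35, edgeR adjusted p = 0.271) and S1pr1 -0.03 (95% interval -0.41 to 0.36, edgeR adjusted p = 0.935). The Zeb2 mutant effect in cDC1 minus the Irf8 mutant effect in cDC2 was also tested. It called no member by edgeR or DESeq2, where 0.0194% of all genes passed edgeR's test. Neither allele was measured in both subsets, so allele and subset cannot be told apart in this difference. An unadjusted p under 0.05 was reached by no member and by 7.62% of all genes. The difference of the effects was -0.38 (SE 0.249, edgeR adjusted p = 0.766) for Gpr183 and 1.72 (SE 0.798, edgeR adjusted p = 0.672) for S1pr3. Without replicate 3 of wild-type cDC1 the value of Gpr183 was -0.66 and passed (edgeR, adjusted p = 0.0411).

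**Figure D4:**
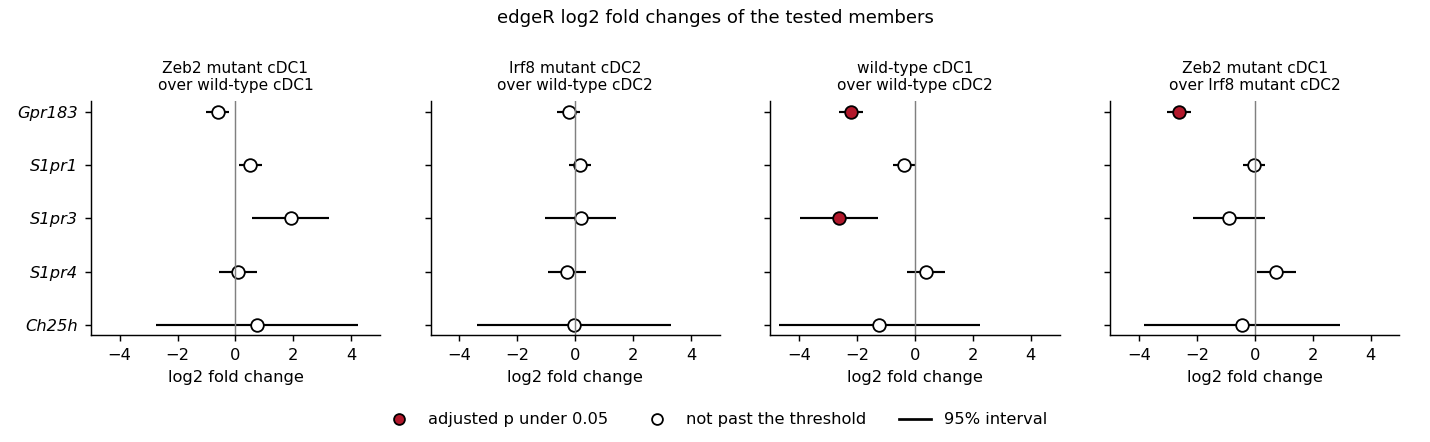
edgeR log2 fold changes (x axis) of the 5 tested members (y axis) in 4 comparisons, with 95% intervals as lines and red symbols for an adjusted p under 0.05. Gpr183 was called at -2.22 and -2.61 in the comparisons of cDC1 with cDC2 and S1pr3 at -2.61 between the wild types, and no member was called in a mutant against its wild type.

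Genes around the 2 systems were taken from 8 lists with 129 genes, of which 124 were tested. In wild-type cDC1 against wild-type cDC2, 24 were called higher and 53 lower, where 14.2% of all genes were higher and 15.9% lower. In Zeb2 mutant cDC1 against Irf8 mutant cDC2, 22 were called higher and 48 lower, where 12.8% and 15.0% of all genes were. Among genes of oxysterol synthesis and breakdown, 1 of 10 tested was higher and 3 were lower in wild-type cDC1. Cyp7b1, which makes the Gpr183 ligand from the product of Ch25h, had 1 and 3 counts in Zeb2 mutant cDC1, 0 and 1 in wild-type cDC1, 109 and 65 in Irf8 mutant cDC2, and 39 and 97 in wild-type cDC2, and was called lower in wild-type cDC1 (edgeR, adjusted p = 4.79e-04). Its counts were thus near 0 in all cDC1 libraries and at 39 or more in all cDC2 libraries. Cyp39a1, another oxysterol hydroxylase, was also lower (-2.45, SE 0.535), as was the sterol carrier Stard5 (-1.10, SE 0.130), and the sterol hydroxylase Cyp27a1 was higher, at 311 CPM in wild-type cDC1, against 221.5 CPM in wild-type cDC2 (0.49, SE 0.123).

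Of the nuclear oxysterol receptors and their targets, 3 of 14 were higher and 6 lower in wild-type cDC1. Nr1h3, which encodes the oxysterol-sensing transcription factor LXR alpha, averaged 0.617 CPM in wild-type cDC1, against 7.84 CPM in wild-type cDC2 (-3.66, SE 0.619), and the cholesterol exporter Abca1, a textbook LXR target, 1.99 and 8.48 CPM (-2.09, SE 0.332). The cholesterol transporter Npc1 was lower in cDC1 (-1.63, SE 0.176) and Insig2, which holds back sterol synthesis, higher (1.63, SE 0.166). Of the genes that make, break down or export S1P, 5 of 19 were higher and 5 lower. Plpp1, a phosphatase of lipid phosphates at the cell surface, averaged 113 CPM in wild-type cDC1, against 0.270 CPM in wild-type cDC2 (8.69, SE 0.357), and its relative Plpp2 was higher as well (1.62, SE 0.330). Sphk1, a kinase that makes S1P, averaged 0.146 CPM in wild-type cDC1, against 1.82 CPM in wild-type cDC2 (-3.62, SE 0.665), and the ceramide synthase Cers6 was lower (-2.45, SE 0.230).

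Among 20 other lysophospholipid and lipid receptors tested, 6 were higher and 9 lower in wild-type cDC1. Gpr55 (-3.81, SE 0.486), the lysophosphatidic acid receptor Lpar1 (-3.22, SE 0.574) and S1pr5 were the largest of those lower, and the fatty acid receptor Ffar4 averaged 48.1 CPM in wild-type cDC1, against 7.37 CPM in wild-type cDC2 (2.71, SE 0.171). Genes of G protein coupling and desensitisation had 5 of 29 higher and 12 lower. The G protein subunits Gna15 (3.68, SE 0.252) and Gnb4 were higher, as was Rgs10, which shortens G protein signals, and the receptor kinase Grk3 was lower (-1.83). Of 11 genes listed here as possible regulators of S1pr1 or Gpr183, 1 was higher and 5 were lower. The higher gene, Batf3, is also in the cDC1 marker list. Cd69, which takes S1pr1 off the surface, averaged 33.7 CPM in wild-type cDC1, against 104 CPM in wild-type cDC2 (-1.63, SE 0.258), Bcl6, a repressor of Gpr183 in mouse B cells, 133 and 354 CPM (-1.41, SE 0.156), and Prdm1 3.16 and 62.7 CPM (-4.31, SE 0.153). Bcl6 and Gpr183 were thus both lower in cDC1.

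The genes of bridging channel cDC2 and of lymphotoxin signalling had 8 of 12 called lower in wild-type cDC1 and 0 higher, and 10 of 12 lower in Zeb2 mutant cDC1 than in Irf8 mutant cDC2. The C-type lectin Clec4a4 averaged 0.0691 CPM in wild-type cDC1, against 71.3 CPM in wild-type cDC2, Dtx1, a Notch target, 6.87 and 509 CPM, Cd4 8.44 and 211 CPM, and Ltb, a lymphotoxin subunit, 24.3 and 228 CPM. Clec4a4, Dtx1, Cd4 and Esam of this list are also in the cDC2 marker list, so they are not independent of the genes that describe the subsets. The same holds for the chemokine receptor gene Xcr1, which is in the cDC1 marker list. Of 9 chemokine receptors 3 were higher and 5 lower, with Xcr1 (7.60) and Cxcr3 (4.50) the largest higher and Ccr6 (-4.70) and Cx3cr1 (-4.17) the largest lower. In either mutant against its wild type edgeR called 0 of the 124 genes. Unadjusted p-values under 0.05 numbered 28 in Zeb2 mutant cDC1, where 10.5% of all genes had one, and 25 in Irf8 mutant cDC2, where 6.36% had one. DESeq2 called 7 of the list genes in Zeb2 mutant cDC1, against 305 of all genes, and 8 in Irf8 mutant cDC2, against 151 of all genes.

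**Figure D5:**
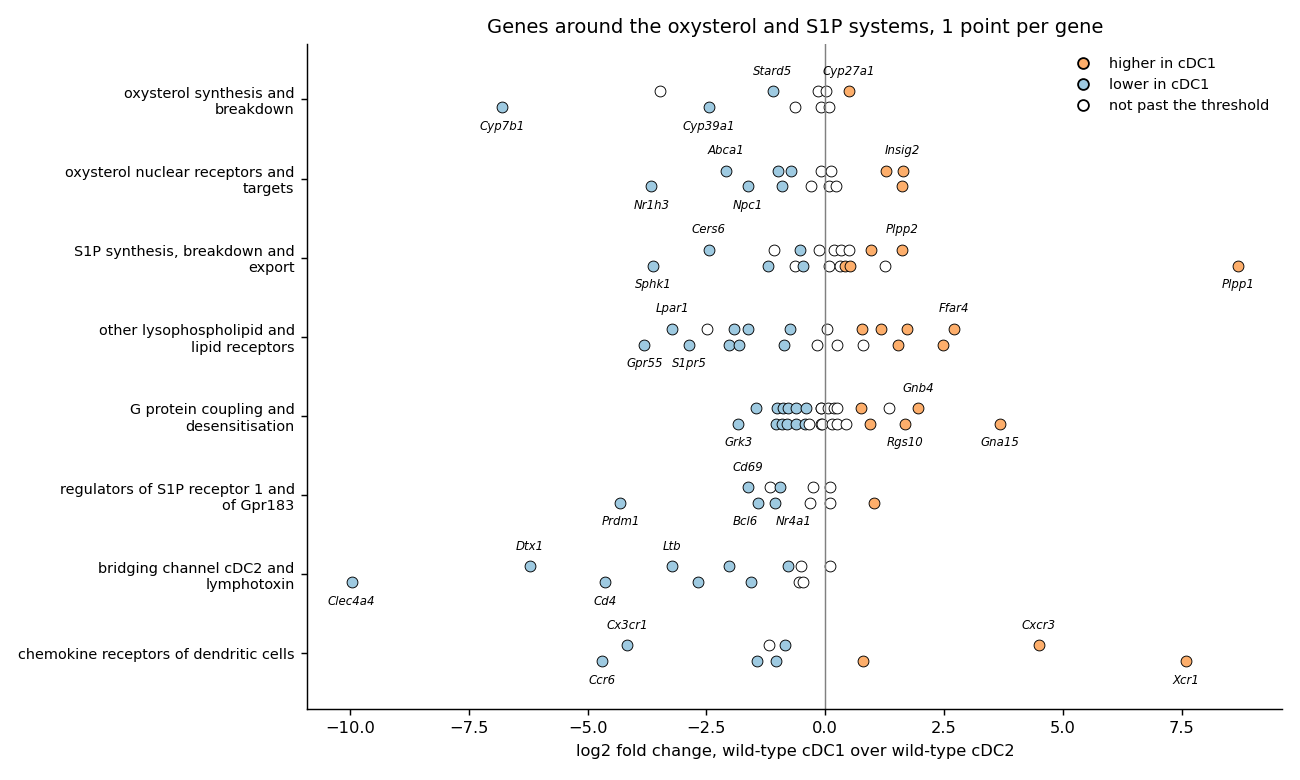
edgeR log2 fold changes of wild-type cDC1 over wild-type cDC2 (x axis) for the tested genes of the 8 lists (y axis), 1 point per gene, coloured by call, with labels on up to 4 genes per list. Plpp1 lies farthest to the right at 8.69 and Clec4a4 farthest to the left at -9.97, and the position of Cyp7b1, with 1 count in wild-type cDC1, is a fitted value with no meaning as a fold.

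Genes with the profile most like each receptor over the 8 libraries were found by the root mean square difference of centred log2 CPM among 13741 genes. For Gpr183 these were Ms4a6c (0.13), H2-Eb2 (0.14) and Osgin2 (0.14), where the median gene differed by 1.30. Ms4a6c, for example, averaged 12.1 CPM in Zeb2 mutant cDC1, 15.4 in wild-type cDC1, 70.4 in Irf8 mutant cDC2 and 82.4 CPM in wild-type cDC2, the same order as Gpr183. For S1pr1 the nearest were Lgals9 (0.06), Lrrc8c (0.09) and Alg11 (0.09), with a median of 0.50. For S1pr4 they were Pak4 (0.10), Dele1 (0.10) and Tmem18 (0.11), with a median of 0.54. For S1pr3 they were Brsk2 (0.41), Sult4a1 (0.44) and Lonrf3 (0.50), with a median of 1.22. These 3 genes had 8, 10 and 6 counts in the 2 wild-type cDC1 libraries together. The distances cannot be compared directly between receptors, whose own profiles had SDs of 1.25 (Gpr183), 0.24 (S1pr1), 1.14 (S1pr3) and 0.32 (S1pr4). These distances describe the 8 libraries and carry no test.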

How the data were processed

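Per the labels' protocols, total RNA was purified with NucleoSpin RNA XS columns, made into libraries with the SMARTer Ultra Low RNA kit and read as pairs of 150 bases. The authors used bcl2fastq, STAR, Subread, featureCounts 2.0.32 and Salmon 1.5.23 with GRCm38 or mm10, per the submitters' processing notes. These sources do not state the strand setting or how reads shared between genes were treated.

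Per the file headers, each deposited table holds a count, CPM, FPKM and TPM column for 55487 Ensembl genes. The deposited counts are whole numbers. The deposited CPM and FPKM were checked to be the counts scaled to library totals and then to exon length. The deposited FPKM served to compare genes, and the deposited TPM were not used. Symbols matched 55141 gene IDs.

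Counts were fitted with edgeR 4.0.16 in R 4.3.3 (filterByExpr by group, TMM, 1 coefficient per group, robust quasi-likelihood). The common biological coefficient of variation was 0.286. Standard errors (SE) were taken as the absolute log2 fold change divided by the square root of the F statistic. Alternatives were DESeq2 1.42.0, other scalings, no filter, only the compared libraries, a replicate block, removal of length trends and each library left out. The script was tested on simulated counts.

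The members and the gene lists were chosen with earlier results of these data known. Named genes are the members, up to 4 called genes per list with the largest wild-type differences, if the higher group averaged 1 CPM or more, and the 3 nearest genes of each member of at least 1 CPM. S1pr2, Ubac2 and the marker genes named one by one were added after their values were seen.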

Additional observations from a re-analysis of the deposited data

How the results depend on the processing

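Each of the 5 comparisons was recomputed under 17 or 18 alternatives. Gpr183 stayed called, with the same direction, in wild-type cDC1 against wild-type cDC2 (-2.56 to -1.95) and in Zeb2 mutant cDC1 against Irf8 mutant cDC2 (-2.66 to -2.51) under all of them. Of the members, 2 were called between the wild types, 1 to 2 when a library was left out (1 without replicate 2 of wild-type cDC2) and 3 with the length trend removed. In Zeb2 mutant against wild-type cDC1 the count of members was 0, against 2 with no low-count filter and 0 to 1 with a library left out (1 without replicate 3 of wild-type cDC1). For the difference of the mutant effects it was 0, against 0 to 1 with a library left out, again without that replicate. In Irf8 mutant against wild-type cDC2 it was 0 under all 18. The cause of these changes was not tested.

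Over all genes, 6219 were called between the wild types (3800 to 6894 with a library left out). Zeb2 mutant against wild-type cDC1 gave 14, with 305 by DESeq2, 477 without the filter, 7 with only the compared libraries and 0 to 1035 with a library left out. Irf8 mutant against wild-type cDC2 gave 0, with 1313 genes at an unadjusted p under 0.05, and 151 by DESeq2, 199 without the filter, 7 with DESeq2 size factors, 5 with upper-quartile scaling, 7 with only the compared libraries and 0 to 15 with a library left out. The difference of the effects gave 4, with 162 by DESeq2, 306 without the filter, 2 with the length trend removed and 0 to 530 with a library left out.

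Sources do not say that replicate numbers pair libraries, and the deviations of same-numbered libraries correlated at -0.22 to 0.16 between groups. With the replicate block the counts of members stayed at 2, 0, 0, 1 and 0, all genes called in the difference of effects fell to 1, and the block with the length trend removed gave 5 genes in Zeb2 mutant cDC1 and 1 in the difference. Ch25h in Irf8 mutant against wild-type cDC2 was -0.04, but 0.17 with the block, 0.20 with the block and the length trend removed, and 0.67 with the numbers of wild-type cDC1 crossed, an alternative chosen after seeing the data. That crossing left 19 genes called in Zeb2 mutant cDC1.

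S1pr1 in Zeb2 mutant cDC1 against Irf8 mutant cDC2 was -0.03, but 0.07 with library totals alone and -0.19 to 0.16 with a library left out. Other signs that turned when 1 library was left out were all of uncalled values. Ch25h ran from -6.75 to 0.52 between the wild types, -1.42 to 6.27 in Zeb2 mutant cDC1, -0.84 to 1.71 in Irf8 mutant cDC2, -2.61 to 0.38 between the mutants and -1.38 to 6.31 for the difference. S1pr4 ran from -0.14 to 0.30 in Zeb2 mutant cDC1. In Irf8 mutant cDC2, S1pr1 ran from -0.02 to 0.33 and S1pr3 from -0.52 to 1.33. A group left with 1 library was assumed to vary like the others. Counts limit Ch25h, and intervals of 2 libraries a group limit the rest.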

Other observations

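Some genes of the 8 lists differed in a mutant by DESeq2 (adjusted p under 0.05), although not by edgeR, whose adjusted p-values are given here. They are named for that call, after their values were seen. In Zeb2 mutant against wild-type cDC1 the 7 genes were Ffar2, Hes1, Cers4, Esam and Ccr2, which were lower, and Gpr55 and Lpcat3, which were higher. Ffar2, a receptor of short-chain fatty acids, averaged 6.93 CPM in Zeb2 mutant cDC1 and 13.0 CPM in wild-type cDC1 (edgeR log2 fold change -0.91, adjusted p = 0.0765), and Hes1, a Notch target, 9.92 and 22.1 CPM (-1.16, adjusted p = 0.0871). Gpr55 averaged 2.91 CPM in Zeb2 mutant cDC1 and 0.793 CPM in wild-type cDC1 (1.88, adjusted p = 0.234). In Irf8 mutant against wild-type cDC2 the 8 genes were Ffar4, Klf2, Cd69, Bcl6, Nr4a1, Ltb and Ccr6, which were lower, and Xcr1, which was higher. Klf2, a factor that drives S1pr1 in mouse T cells, averaged 476 CPM in Irf8 mutant cDC2 and 878 CPM in wild-type cDC2 (-0.88, adjusted p = 0.423), Cd69 52.1 and 104 CPM (adjusted p = 0.454), and Ffar4 2.44 and 7.37 CPM (-1.59, adjusted p = 0.0507). S1pr1 itself averaged 22.4 ± 3.83 CPM in Irf8 mutant cDC2 and 20.0 ± 0.938 CPM in wild-type cDC2 (SD, n = 2 libraries each). The libraries of the groups did not overlap for any of these 15 list genes, as for 39.0% of all genes in the Zeb2 comparison and 39.3% in the Irf8 comparison. The 15 genes were picked by a call on these same libraries, so their lack of overlap is no further support.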
